A study of Mus musculus with 16 samples.

Results

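The proteasome is the multi-subunit protease that degrades most ubiquitin-tagged proteins of the cell. Its genes were followed here in the cortex of mouse fetuses of gestational day 16, from which total RNA was sequenced. The members were the 51 protein-coding genes, of 55359 gene IDs counted, whose symbol is Psma, Psmb, Psmc, Psmd, Psme, Psmf or Psmg with a number, together with Adrm1 and Pomp. The name pattern matched 56 symbols. Of these, 4 were processed pseudogenes, with at most 2 counts in any library, and 1 was Psmc3ip, a recombination factor that carries the letters only by name. Of the 51 members, 19 belong to the core particle, 18 to the cap, and 14 are chaperones, assembly factors, activators or an inhibitor. The rule uses gene names and classes only.

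The 16 libraries covered male and female fetuses in 4 parental backgrounds: both parents exposed to ethanol (Dual EtOH), the father alone (Paternal EtOH), the mother alone (Maternal EtOH) or neither (Control). There were 2 libraries for each sex within an exposure, 8 groups in all and 4 libraries per exposure. The labels name neither strain, dose nor timing of the exposure, nor whether replicates came from separate litters, so the spread behind each p-value may be technical in part. The question set by the design is what the exposure of either parent did to cortical RNA of the fetus, in each sex.

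In the barrel of the core particle, alpha subunits form the outer rings and gate the entrance, and beta subunits form the inner rings, where Psmb5, Psmb6 and Psmb7 carry the catalytic sites. The cap, or regulatory particle, sits on the barrel. Its base holds a ring of ATPases (Psmc1 to Psmc6) that unfolds substrates, together with the scaffolds Psmd1 and Psmd2 and the ubiquitin receptors Psmd4 and Adrm1, and its lid holds Psmd14, the enzyme that removes ubiquitin chains. In mammalian cells the subunit genes are raised together by the transcription factor NRF1, the product of Nfe2l1, when proteasome activity is short, through antioxidant response elements in their promoters.

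Promoters of 4 members are shown because these genes recur in the results: Psmb5 and Psmb6 encode catalytic subunits, Psmb4 a structural beta subunit and Adrm1 a ubiquitin receptor. Each window runs from 250 bases before to 50 bases after the transcription start, 5′ to 3′ along the gene, from RefSeq on GRCm38.p6. That build is not the GRCm39 of the counts, so these coordinates hold for the sequences only. Capitals mark matches to TGACNNNGC, the core of the antioxidant response element, on either strand. The windows lie at chr14:54617946-54618245 (minus strand) for Psmb5, chr11:70525107-70525406 (plus) for Psmb6, chr3:94886909-94887208 (minus) for Psmb4 and chr2:180171338-180171637 (plus) for Adrm1.
Psmb5: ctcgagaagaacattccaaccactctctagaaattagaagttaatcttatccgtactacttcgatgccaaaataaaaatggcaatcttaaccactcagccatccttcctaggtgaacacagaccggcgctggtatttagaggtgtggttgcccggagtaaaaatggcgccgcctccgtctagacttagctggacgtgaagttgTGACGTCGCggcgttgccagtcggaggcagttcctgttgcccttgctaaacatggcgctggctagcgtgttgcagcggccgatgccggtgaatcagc
Psmb6: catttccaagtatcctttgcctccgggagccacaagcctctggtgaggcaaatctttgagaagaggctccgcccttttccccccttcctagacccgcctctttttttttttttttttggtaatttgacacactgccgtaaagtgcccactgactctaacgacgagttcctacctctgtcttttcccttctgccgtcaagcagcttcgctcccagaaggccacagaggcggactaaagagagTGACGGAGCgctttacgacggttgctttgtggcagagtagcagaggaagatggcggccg
Psmb4: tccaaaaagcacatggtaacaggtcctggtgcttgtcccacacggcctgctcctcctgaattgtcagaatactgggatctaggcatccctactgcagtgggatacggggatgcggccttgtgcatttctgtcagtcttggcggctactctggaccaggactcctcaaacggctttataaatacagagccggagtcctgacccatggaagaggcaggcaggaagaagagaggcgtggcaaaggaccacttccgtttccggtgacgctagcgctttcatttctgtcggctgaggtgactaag
Adrm1: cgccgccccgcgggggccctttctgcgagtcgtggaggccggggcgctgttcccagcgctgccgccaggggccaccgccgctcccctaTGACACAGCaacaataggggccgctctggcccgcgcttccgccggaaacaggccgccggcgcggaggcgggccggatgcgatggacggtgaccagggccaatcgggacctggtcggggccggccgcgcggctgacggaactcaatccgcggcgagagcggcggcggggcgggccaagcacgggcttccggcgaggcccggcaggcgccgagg

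The match began 47 bases before the start in Psmb5 (TGACGTCGC), 9 bases before it in Psmb6 (TGACGGAGC) and 162 bases before it in Adrm1 (TGACACAGC). The Psmb4 window held none. Windows were found for 43 of the 51 members, 46 windows in all, and 7 of them (15.2%) held the 9-letter pattern, against 12.4% of all 32851 windows. The other 4 genes with a match were Psmc6, Psmd12, Psmd9 and Psme4. CCAAT, the box bound by the factor NF-Y, was in 32.6% of the member windows and 37.4% of all windows on either strand. These shares describe letters in a window, not sites in use.

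Libraries held 15336566 to 19966696 counts in males and 26134287 to 35218456 in females, so sex and depth went together. The members took 0.269% to 0.361% of a library, or 42148 to 120119 counts. Cortical excitatory neuron markers summed to 2363 to 2913 CPM over the libraries, with all 7 above 0 in each group. The female dual libraries stood apart in intronic and nuclear RNA: TEC genes (gene models without experimental evidence) and sense-intronic genes took 0.872% and 0.86% of their counts, where the remaining female libraries had 0.325% to 0.391% and the male ones 0.28% to 0.534%. Malat1, a nuclear RNA, was at 6115 and 6275 CPM of the unscaled library total there and at 2492 to 4928 in the other 14 libraries. Male libraries other than control replicate 1 stood apart in other RNA. That control lay within the female ranges for unnamed gene IDs (1.96%) and protein-coding genes (95.6%). Counts on unnamed gene IDs made up 1.96% to 17.8% of a male library, most in male dual replicate 2 (17.8%), male paternal replicate 1 (14.2%) and male control replicate 2 (8.49%), and 1.73% to 2.43% of a female one. Protein-coding genes took 77.8% to 95.6% in males and 94.6% to 96.1% in females, and mitochondrial ribosomal RNA 0.059% to 2.26% in males and at most 0.0325% in females. TMM scaling factors were lowest in male dual replicate 2 (0.835) and male paternal replicate 1 (0.876) and at most 1.08. Male directions below are therefore given under both TMM and library totals. Among controls, female replicate 1 had the lowest level of the collagen gene Col1a1 (17.6 CPM), and male replicate 2 had the highest intronic share of the controls (0.534%).

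Proteasome mRNAs were among the more abundant messages of the fetal cortex. Levels per length are TPM, computed from the counts with exon lengths of GENCODE M21, as the mean of 16 libraries. The 48 members that passed the filter on low counts had a median of 97.2 TPM and lay at a median percentile of 86.8 among the tested protein-coding genes. The 3 highest were Psma6, an alpha subunit, at 296 TPM, Psmd2, a cap scaffold, at 267 TPM, and Psmc1, an ATPase, at 217 TPM. The 3 lowest of those tested were Psmb8 at 0.292 TPM, Psme2b at 5.55 TPM, and Psmg3, a core chaperone, at 7.70 TPM. Psme2b closely resembles Psme2, so its counts are uncertain. Median levels by role were 156 TPM for the 7 beta subunits, 135 TPM for the 7 alpha subunits, 164 TPM for the 6 ATPases, 112 TPM for the 8 lid subunits, 93.5 TPM for the 4 base scaffolds and receptors, 68.7 TPM for the 6 activators and inhibitor, 43.9 TPM for the 5 core assembly factors and 27.2 TPM for the 3 cap chaperones.

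**Figure D1:**
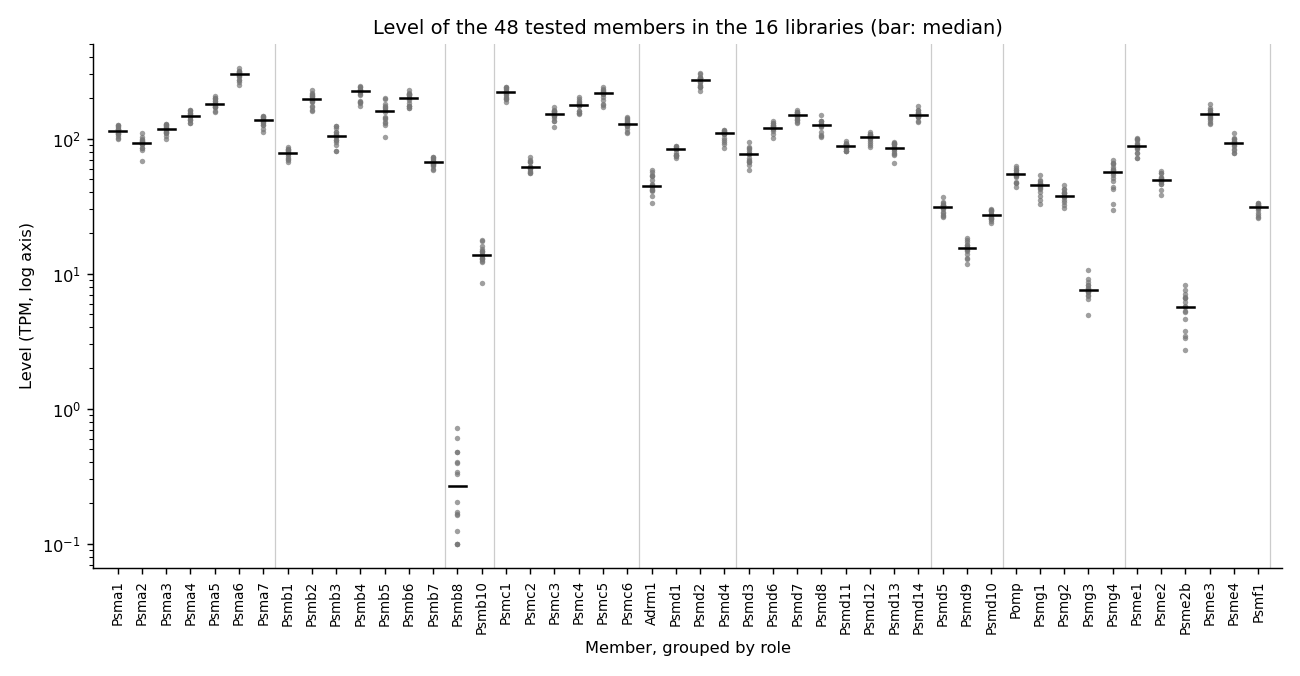
Level of the 48 tested members, in TPM on a log axis, one point for each of the 16 libraries and a bar at their median, with members grouped by role. Psma6, Psmd2 and Psmc1 lie highest (296, 267 and 217 TPM on average) and Psmb8 lowest (0.292 TPM).

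The constitutive catalytic subunits far exceeded their immunoproteasome counterparts, which replace them in immune cells or under interferon. Psmb5 was at 103 to 202 TPM across the 16 libraries and Psmb8 at 0 to 0.719 TPM, so that Psmb8 made up at most 0.355% of the pair. Psmb6 was at 169 to 230 TPM and Psmb9 at 0 to 0.476 TPM, at most 0.282% of the pair. Psmb7 was at 58.3 to 73.5 TPM and Psmb10 at 8.50 to 17.9 TPM, which put Psmb10 at 11.4% to 21.7% of its pair. Psmb10 was thus the one immune subunit measured well above 0 in each of the 16 libraries. The 3 members that failed the filter were Psmb9, Psmb11, the thymus subunit, and Psma8, the testis subunit, with at most 10, 8 and 8 counts in any library.

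Pooled over the groups, levels of most members were steady between replicates, though over all genes the replicates differed most in the female controls. The median within-group SD of the 48 members was 0.0845 on the log2(CPM + 0.5) scale, against 0.0890 for 2105 protein-coding genes of like level and 0.197 for all 21543 genes tested. Differences between exposures are therefore given below even where they are small, with edgeR's quasi-likelihood test, adjusted p-values by Benjamini and Hochberg over 21543 genes and a threshold of 0.05. Levels in single libraries are CPM scaled by TMM.

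With exposure of both parents, 3 members fell against control. Adrm1 was at 38.8 and 39.3 CPM in male and 40.2 and 37.7 CPM in female dual libraries, against 41.1 and 41.8 CPM in male and 56.8 and 55.0 CPM in female controls. All 4 dual libraries lay below all 4 controls, by a little in males and by more in females. Its log2 fold change over both sexes was -0.30 ± 0.06 (SE, edgeR adjusted p = 0.00781). Psmb5, the chymotrypsin-like catalytic subunit, was at 26.9 and 24.5 CPM in male and 27.0 and 25.7 CPM in female dual libraries, against 30.5 and 25.3 CPM in male and 40.5 and 36.9 CPM in female controls. The male groups overlapped and the female groups did not (log2 fold change -0.34 ± 0.08, edgeR adjusted p = 0.0206). Psmb4, which helps to complete the beta ring during assembly, was at 84.8 and 90.6 CPM in male and 74.4 and 74.4 CPM in female dual libraries, against 93.1 and 81.5 CPM in male and 105 and 99.7 CPM in female controls. Again only the female groups were apart (log2 fold change -0.23 ± 0.06, edgeR adjusted p = 0.0399).

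Of all genes tested, 0.641% passed in this direction. Fold changes below 0 were found for 42 of the 48 members, against 49.9% of all genes, and their median was -0.10 (log2). The protein-coding genes were shifted as a class too, with 38.9% of them above 0. The next members by p did not pass: Psmd2 had a log2 fold change of -0.17 (edgeR adjusted p = 0.0686), Psmd3, a lid subunit, -0.20 (0.0717), and Psmb2, a beta subunit, -0.21 (0.109). The highest fold change was that of the ATPase Psmc6, 0.13, which did not pass. Of the protein-coding genes, 0.906% fell. DESeq2 called 4 members. The count was 0 in a fit on protein-coding genes alone, where Adrm1 stood at -0.26 (edgeR adjusted p = 0.0623), and 0 in a fit of the dual and control libraries alone. Scaled by library totals alone, Adrm1 and Psmb5 passed and Psmb4 did not (edgeR adjusted p = 0.0569). The count was 0 without male dual replicate 1, 1 without male control replicate 1, male dual replicate 2 or female dual replicate 2, and 5 without female control replicate 2. Of marker genes of other cell types, 1 of 5 endothelial genes fell in this comparison and 1 of 2 nuclear RNAs, Malat1, rose; 0 of 6 erythroid genes passed edgeR's test, with a median of -0.56.

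In females alone, 16 of the 48 members fell with dual exposure and none rose, against 5.64% of all genes that fell. Fold changes below 0 were found for 46 of 48, against 48.1% of all genes, with a median of -0.23 (log2). The protein-coding genes were shifted as a class too, with 38.8% of them above 0. All 7 beta subunits passed. Psmb5 had the lowest fold change of them at -0.56 ± 0.10 (SE, edgeR adjusted p = 0.00218), followed by Psmb4 at -0.46 ± 0.08 (0.00146), Psmb2 at -0.40 ± 0.10 (0.0122) and Psmb3 at -0.37 ± 0.10 (0.0155). Psmb6, the caspase-like catalytic subunit, was at 74.5 and 70.4 CPM in female dual libraries, against 96.2 and 85.9 CPM in female controls (log2 fold change -0.33, edgeR adjusted p = 0.0109). Psmb7, the trypsin-like one, was at 46.3 and 41.6 CPM in female dual libraries, against 56.2 and 51.3 CPM in female controls (-0.29, edgeR adjusted p = 0.0335). Psmb1 was at 71.4 and 67.9 CPM in female dual libraries, against 89.1 and 80.9 CPM in female controls.

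Of the 7 alpha subunits 0 passed in edgeR's test, with a median log2 fold change of -0.14 against -0.37 for the beta subunits. All 7 had fold changes below 0. Psma6 came nearest to the threshold, at 74.7 and 68.5 CPM in female dual libraries, against 92.5 and 80.2 CPM in female controls (log2 fold change -0.27, edgeR adjusted p = 0.0542). The difference between the alpha and beta subunits was not tested.

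In the cap, 9 of 18 members fell in females. Among the base scaffolds and receptors these were Adrm1 (log2 fold change -0.52 ± 0.08 SE, edgeR adjusted p = 0.000477), Psmd2 (-0.38 ± 0.07, 0.00213) and Psmd1 (-0.23 ± 0.07, 0.0472), while the receptor Psmd4 had -0.12 and did not pass. Psmd2 was at 209 and 199 CPM in female dual libraries, against 278 and 253 CPM in female controls. Of the 6 ATPases, Psmc1, Psmc4 and Psmc5 fell, by 0.33, 0.29 and 0.28 on the log2 scale. Psmc6 went the other way without passing: it was at 103 and 97.9 CPM in female dual libraries, against 102 and 80.1 CPM in female controls. Of the 8 lid subunits, Psmd3, Psmd8 and Psmd7 fell, by 0.39, 0.35 and 0.27 on the log2 scale. Psmd14, the ubiquitin-removing enzyme, was at 84.4 and 87.7 CPM in female dual libraries, against 110 and 87.6 CPM in female controls, and did not pass.

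Of the 14 chaperones, assembly factors, activators and inhibitor, 0 passed edgeR's test in females. Fold changes below 0 were found for 13 of them, against 48.1% of all genes. Pomp, the maturation factor of the core, was at 59.4 and 62.4 CPM in female dual libraries, against 73.2 and 66.1 CPM in female controls. Psme1, a subunit of the interferon-inducible activator, was at 38.7 and 39.6 CPM in female dual libraries, against 42.8 and 46.4 CPM in female controls. Psmf1, the proteasome inhibitor, was at 42.9 and 41.9 CPM in female dual libraries, against 46.7 and 45.4 CPM in female controls.

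**Figure D2:**
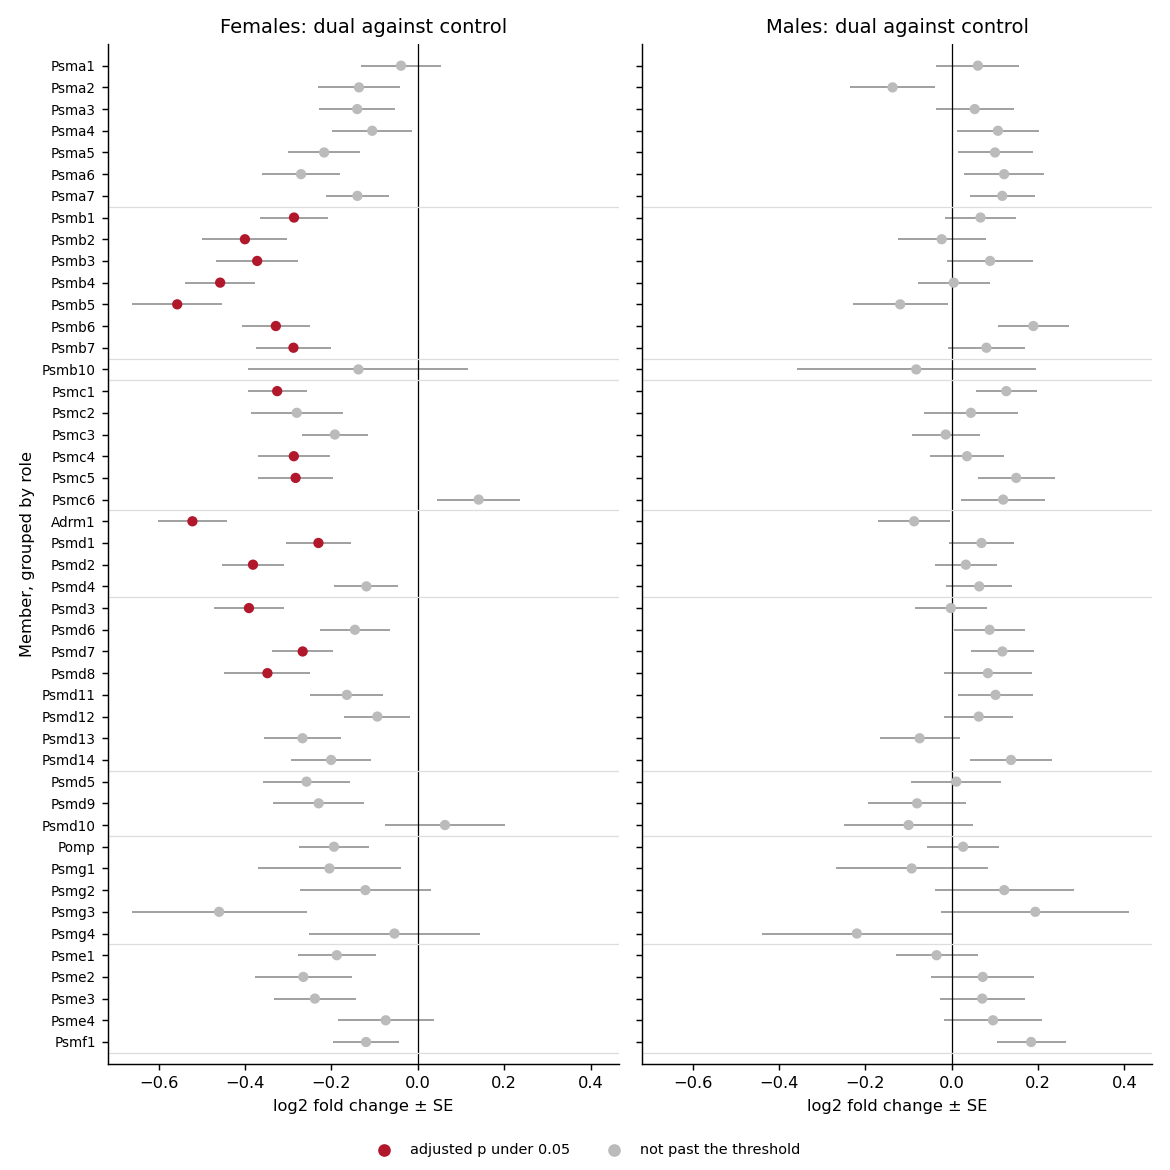
Log2 fold change ± SE of dual exposure against control in females (left) and males (right), for the tested members other than Psmb8 and Psme2b, in rows by role with filled red points where the edgeR adjusted p is under 0.05. In females all 7 beta subunits are red and none of the 7 alpha subunits, and in males none of the members is.

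These female calls moved with the scaling and with single libraries. Of the protein-coding genes 8.02% fell, and their median log2 fold change was -0.08. In a fit on protein-coding genes alone, 6 members passed (Adrm1, Psmb4, Psmb5, Psmd2, Psmd3 and Psmc1), with a median of -0.15. Scaled by library totals alone, 3 passed (Adrm1, Psmb4 and Psmb5), with a median of -0.16 where that of all genes was 0.09. Leaving out female dual replicate 2 gave 5 members. Leaving out female control replicate 1 gave 7, with Psmc6 then higher, and leaving out the other female control gave 28.

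Fold changes of the members followed the GC content of their transcripts. Over 46 members (without Psmb8 and Psme2b) the correlation of GC content with the female dual fold change was r = -0.65 (rho = -0.54), against r = -0.25 (rho = -0.37) over 14998 protein-coding genes; the points share the same 4 libraries. The longest coding transcript had a median GC content of 52.2% for the 7 beta subunits and 45.0% for the 7 alpha subunits, was highest for Adrm1 (60.3%) and lowest for Psmc6 (37.0%). With the protein-coding genes split into 4 equal bins of GC content, low to high, members had a median log2 fold change of -0.11, -0.23, -0.27 and -0.36, against 0.07, -0.05, -0.13 and -0.19 for all protein-coding genes. The members' median lay below that of the protein-coding genes in each bin. With the GC trend of each library also taken out of the fit on protein-coding genes, which by itself gave 6 members, 2 passed in females: Psmb4 (-0.33, edgeR adjusted p = 0.0319) and Psmd2 (-0.27, 0.0457). Adrm1 (-0.34, 0.0625) and Psmb5 (-0.39, 0.0631) then missed the threshold. The median over the members was -0.16 in that fit, against -0.15 on protein-coding genes without this step.

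**Figure D3:**
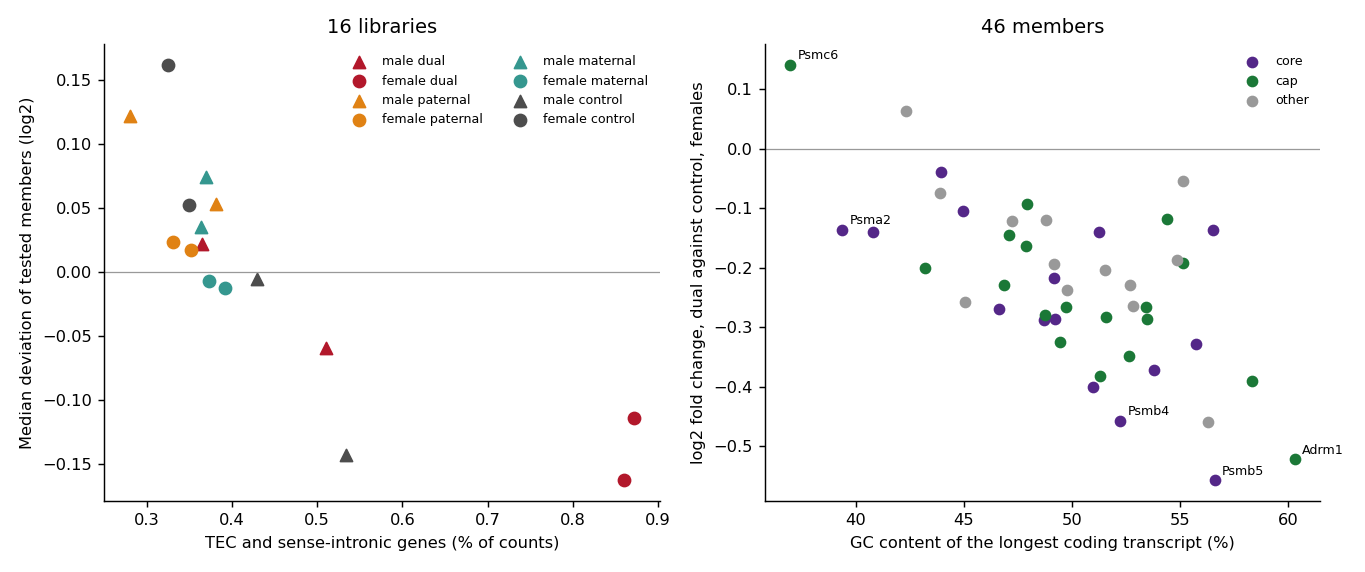
Left, median log2 deviation of the tested members in each of the 16 libraries against the percentage of counts on TEC and sense-intronic genes; right, log2 fold change of dual exposure against control in females against the GC content of the longest coding transcript (%), for 46 members coloured by core, cap or other. The female dual libraries lie at 0.86% and 0.872% with medians of -0.16 and -0.11, and fold changes run from Psmc6 at the upper left to Adrm1 at the lower right.

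Library composition moved with the members' level too. The median log2 deviation of the members was -0.11 and -0.16 in the female dual libraries, which had the highest intronic shares, and 0.16 and 0.05 in the female controls, with shares of 0.325% and 0.349%. In males the library with the higher share was the lower of its pair both in the dual group (-0.06 at 0.511%, against 0.02 at 0.365%) and among controls (-0.14 at 0.534%, against -0.01 at 0.429%). The same held for the male paternal pair (0.05 at 0.381%, against 0.12 at 0.28%), but not for the male maternal pair (0.07 at 0.369%, against 0.04 at 0.363%). In females it held for the control, paternal and maternal pairs, but not for the dual pair (-0.11 at 0.872%, against -0.16 at 0.86%). The part of RNA composition and of GC content in the female result was not tested beyond the fits given. In bulk RNA, fewer cells of a type and less RNA per cell cannot be told apart. Among markers of other cell types, where 5.64% of all genes fell and 9.34% rose in females with dual exposure, 2 of 6 erythroid genes fell, and the list summed to 365 and 368 CPM in female dual libraries, against 530 and 645 CPM in female controls. For 5 endothelial genes, of which 1 fell, the sums were 172 and 188 CPM in female dual libraries, against 159 and 265 CPM in female controls. For 7 microglial genes, of which 0 passed edgeR's test, they were 42.0 and 50.6 CPM in female dual libraries, against 45.7 and 67.8 CPM in female controls. For 3 thalamic genes, of which 1 fell, with a median log2 fold change of -0.66, the sums were 33.2 and 52.1 CPM in female dual libraries, against 42.7 and 94.5 CPM in female controls. For 7 genes of meninges and fibroblasts, of which 1 rose, they were 219 and 223 CPM in female dual libraries, against 82.8 and 394 CPM in female controls. Of 2 nuclear RNAs, Malat1 rose. In each of these lists 0 genes were at 0 in a whole group. Their part in the result was not tested.

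In males, 0 members passed edgeR's test with dual exposure and 0 passed DESeq2's, and 0% of all genes passed edgeR's test in either direction. Fold changes above 0 were found for 35 of the 48 members, against 48.9% of all genes, with a median of 0.07, which became -0.02 without male control replicate 2 and 0.15 without male control replicate 1. This direction depends on the scaling. By library totals alone, 44 of the 48 lay below control with a median of -0.11, where the median of all genes was -0.17. In TPM the members summed to 4765 and 4323 in male dual libraries, against 5413 and 4552 in male controls. As a share of protein-coding counts they took 0.335% and 0.346% in male dual libraries, against 0.347% and 0.323% in male controls. The groups overlapped in both measures. Psmb6 was at 75.2 and 83.1 CPM in male dual libraries, against 67.5 and 71.4 CPM in male controls (log2 fold change 0.19, edgeR adjusted p = 0.942). Psmf1 was at 45.2 and 44.9 CPM in male dual libraries, against 39.8 and 39.5 CPM in male controls (0.18, 0.942). By library totals their log2 fold changes were 0.015 and 0.014. Of erythroid genes 0 of 6 passed edgeR's test in males, and their sums were 480 and 517 CPM in male dual libraries, against 680 and 696 CPM in male controls.

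The dual effect itself differed between the sexes for 6 members, tested as the male minus the female log2 fold change, against 0.733% of all genes that passed in this direction. They were Psmb6 (0.52 ± 0.11 SE, edgeR adjusted p = 0.0230), Psmb4 (0.46 ± 0.12, 0.0375), Psmc1 (0.45 ± 0.10, 0.0221), Adrm1 (0.43 ± 0.12, 0.0470), Psmd2 (0.41 ± 0.10, 0.0336) and Psmd7 (0.38 ± 0.10, 0.0457). For Psmc1 the values were 95.7 and 95.5 CPM in male dual libraries, against 89.9 and 85.2 CPM in male controls, and 79.5 and 80.4 CPM in female dual libraries, against 103 and 97.4 CPM in female controls. On this TMM scale the groups did not overlap in either sex and were in opposite order. In TPM the male groups overlapped, with Psmc1 at 216 and 187 TPM in male dual libraries, against 225 and 197 TPM in male controls. By library totals its male log2 fold change was -0.045. The difference was above 0 for 44 of 48 members, against 46.8% of all genes, and its unadjusted p was under 0.05 in that direction for 25, against 8.37% of all genes. It was above 0 for 57.8% of the protein-coding genes. The count of 6 became 0 by library totals, where the difference was above 0 for 29 of 48 members with a median of 0.06 and the median of all genes was -0.28. It became 0 on protein-coding genes alone and 0 without male control replicate 2, male dual replicate 2 or female dual replicate 2. It became 1 without female dual replicate 1, 2 without female control replicate 1 or male dual replicate 1, and 23 when female control replicate 2 was left out. Of the marker genes, 1 of 7 for meninges and fibroblasts and 1 of 2 nuclear RNAs passed in the other direction.

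**Figure D4:**
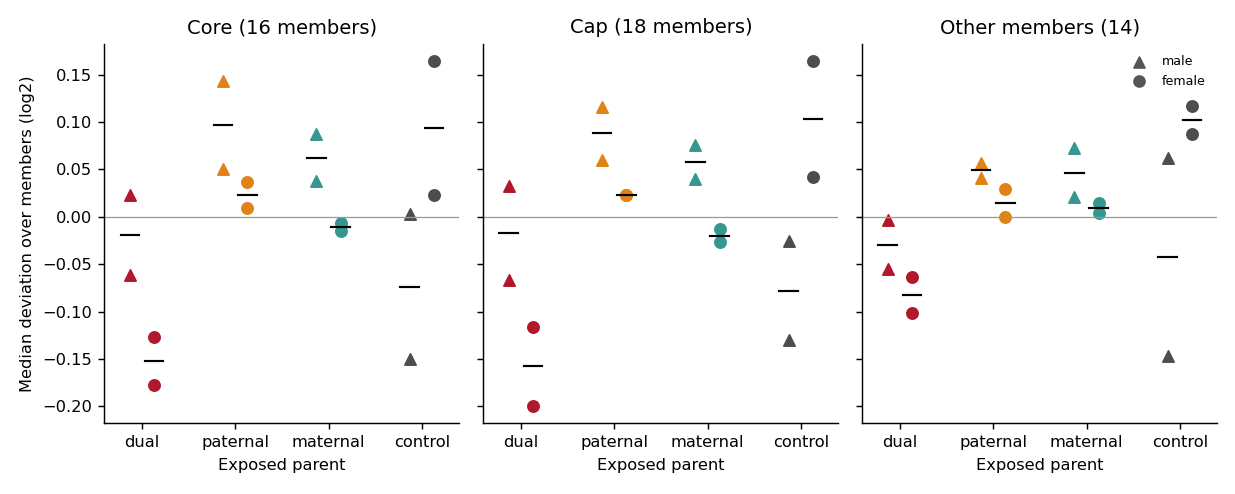
Median log2 deviation of the core, cap and other members in each library from the members' means over the 16 libraries, by exposed parent, with triangles for males, circles for females and a bar at the mean of each pair. In core and cap, female dual replicate 2 is lowest, followed by male control replicate 2 and female dual replicate 1, and female control replicate 1 is highest. On this TMM scale the mean of the male controls lies below that of the male dual libraries.

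With exposure of 1 parent alone, members stayed short of the threshold. With paternal exposure 0 members and 0% of all genes passed edgeR's test in either direction over both sexes, in males and in females, and DESeq2 also called 0 members. The same held for maternal exposure, again with 0% of all genes in each of these 3 comparisons. Over both sexes 0 members had an unadjusted p under 0.05 with either single exposure. The share of all genes under it is not given for these comparisons, so this count is not read as a result about the members. Without female control replicate 1, Psme4, a proteasome activator, passed higher with paternal exposure. Over both sexes, fold changes above 0 were found for 33 of 48 members with paternal exposure, against 47.5% of all genes, and for 27 with maternal exposure, against 48.9%. They were found for 53.2% and 52.6% of the protein-coding genes. By library totals 20 and 27 members lay above 0. The smallest p with paternal exposure was that of the alpha subunit Psma7 (log2 fold change 0.10 ± 0.05 SE, edgeR adjusted p = 0.612), followed by Psmb1 (0.11, 0.635), Psma4 (0.11, 0.661), Psmb6 (0.10, 0.673), Psmd7 (0.08, 0.681) and Psmc6 (0.10, 0.71). With maternal exposure it was that of Psmb6 (0.12 ± 0.06, edgeR adjusted p = 0.998), followed by Psme1 (0.09), Psmc2 (-0.10), Psmc3 (0.07), Psmb3 (0.08) and Psmc6 (0.07), all with the same adjusted p.

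Both single exposures had members on opposite sides of control in the 2 sexes, with each sex's comparisons sharing the same control libraries. In males 44 of 48 members lay above control with paternal exposure (median 0.15, against 47.2% of all genes) and 44 with maternal exposure (median 0.13, against 47.3%). Protein-coding genes above control in males made up 54.4% and 54.6% of those tested. An unadjusted p under 0.05 on that side was found for 13 members with paternal exposure (4.19% of all genes) and for 12 with maternal exposure (3.39%). By library totals, 33 lay above control with paternal exposure (median 0.03, where that of all genes was -0.14) and 44 with maternal exposure (median 0.11). In females 43 of 48 lay below control with paternal exposure (median -0.09, against 51.5% of all genes) and 46 with maternal exposure (median -0.12, against 50.9%). Protein-coding genes above control in females made up 47.8% and 45.0% of those tested. Psmb6 was at 85.2 and 84.6 CPM in male paternal and 92.5 and 86.9 CPM in male maternal libraries, against 67.5 and 71.4 CPM in male controls. It was at 83.5 and 86.3 CPM in female paternal and 80.4 and 85.2 CPM in female maternal libraries, against 96.2 and 85.9 CPM in female controls.

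The male minus female difference passed edgeR's test for 0 members and 0% of all genes, for paternal and for maternal exposure, and DESeq2 called 0 members. With single libraries left out, the members' median difference ran 0.15 to 0.34 with paternal and 0.20 to 0.33 with maternal exposure. The difference was above 0 for 45 of 48 members with paternal exposure (45.9% of all genes) and for 47 with maternal exposure (46.8%). Among protein-coding genes it was above 0 for 51.4% and 54.0%. Its unadjusted p was under 0.05 on that side for 18 members with paternal exposure (4.99% of all genes) and for 23 with maternal exposure (4.60%). The difference was above 0 by library totals for 39 members with paternal exposure and for 46 with maternal exposure. Medians of the members were then 0.08 and 0.23, against 0.22 and 0.26 with TMM, and those of all genes -0.17 and -0.06. In the controls themselves, the median deviation of the members was -0.01 and -0.14 in males and 0.16 and 0.05 in females, so that the female controls lay above both male controls.

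Dual exposure was also set against each single exposure, in comparisons that share the dual libraries with those above. Against paternal exposure 7 fell, against 2.16% of all genes: Psmb4 (log2 fold change -0.31 ± 0.06 SE, edgeR adjusted p = 0.003), Adrm1 (-0.30 ± 0.06, 0.00401), Psmb5 (-0.29 ± 0.08, 0.0248), Psmb1 (-0.22 ± 0.06, 0.0254), Psmd2, Psmb2 and Psmc1. Psmb4 was at 84.8 and 90.6 CPM in male and 74.4 and 74.4 CPM in female dual libraries, against 108 and 98.6 CPM in male and 99.7 and 94.2 CPM in female paternal libraries. The groups did not overlap in either sex. Psmb4 and Adrm1 alone passed on protein-coding genes only, and also by library totals. Without single libraries 2 to 7 members passed, with 2 left without male paternal replicate 1, male dual replicate 1, female paternal replicate 1 or female dual replicate 2, and 3 without female paternal replicate 2. Markers of other cell types were lower in dual than in paternal libraries too. Of 6 erythroid genes 3 fell (median -0.78), with sums of 365 to 517 CPM in dual and 471 to 1179 CPM in paternal libraries. Of 5 endothelial genes 3 fell (median -0.49), with sums of 172 to 211 CPM in dual and 238 to 263 CPM in paternal libraries. Of 7 microglial genes 3 fell (median -0.48), and of 7 genes of meninges and fibroblasts 1 fell (median -0.82). Malat1 rose. The part of these in the members' fall was not tested.

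Against maternal exposure 3 members fell, against 1.34% of all genes: Adrm1 (-0.28 ± 0.06 SE, edgeR adjusted p = 0.00824), Psmb5 (-0.33 ± 0.08, 0.0164) and Psmb4 (-0.25 ± 0.06, 0.0166). Adrm1 was at 43.6 and 45.6 CPM in male and 49.6 and 51.3 CPM in female maternal libraries, above all 4 dual libraries, which lay between 37.7 and 40.2 CPM. On protein-coding genes alone 0 members passed edgeR's test, and 1 did without male maternal replicate 1, male dual replicate 1 or female dual replicate 2. Here 3 of 6 erythroid genes fell (median -0.68), with sums of 365 to 517 CPM in dual and 563 to 952 CPM in maternal libraries. Of 5 endothelial genes 3 fell (median -0.49), with sums of 172 to 211 CPM in dual and 242 to 269 CPM in maternal libraries. All 7 genes of meninges and fibroblasts lay below maternal (median -0.67) with 0 past edgeR's threshold, and Malat1 rose. The part of these was not tested.

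Whether the dual effect departed from the sum of the single ones was tested as their difference, and Psmb4 alone of the members passed, lower than the sum (-0.34 ± 0.08 SE, edgeR adjusted p = 0.0278), against 0.724% of all genes. That call was lost on protein-coding genes alone, by library totals and without any 1 of 8 libraries: male control replicate 2, male paternal replicate 1, male maternal replicate 1, male dual replicate 1, female paternal replicate 1, female maternal replicate 1 and either female dual library. The count was 2 without male dual replicate 2 and 7 without female control replicate 1.

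The balance of core and cap was close to even in each library. The summed level of the core members over that of the cap members was 0.881 to 0.888 in the 4 dual libraries, 0.893 to 0.921 in the paternal, 0.897 to 0.927 in the maternal and 0.883 to 0.913 in the control libraries. As log2 the means were -0.18 ± 0.01, -0.14 ± 0.02, -0.14 ± 0.02 and -0.15 ± 0.02 (SD, n = 4 each) in dual, paternal, maternal and control libraries. The dual range overlapped the control range, and the pooled within-group SD was 0.02. The median log2 fold change of the core minus that of the cap was -0.017 for dual, -0.019 for paternal and 0.027 for maternal exposure against control, 0.017 for dual against paternal and -0.032 for dual against maternal. Within the core, the summed beta over alpha level as log2 was -0.21, -0.19, -0.18 and -0.24 in the dual libraries, -0.14 to -0.02 in the paternal, -0.14 to -0.04 in the maternal and -0.17 to 0.06 in the control libraries. All 4 dual libraries lay below the other 12 in this ratio. The female controls were at -0.01 and 0.06 and the male controls at -0.17 and -0.14. This ratio was formed after the values were seen and is given without a test.

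Genes that work with the proteasome were read beside it. The list held 30 genes of ubiquitin supply, substrate delivery and proteasome regulation, of which 29 had a matching ID and all 29 were tested. With dual exposure over both sexes 1 fell, against 0.641% of all genes, and 0 rose: Ubb, a polyubiquitin gene, was at 531 and 576 CPM in male and 442 and 425 CPM in female dual libraries, against 579 and 563 CPM in male and 589 and 574 CPM in female controls (log2 fold change -0.23 ± 0.05 SE, edgeR adjusted p = 0.0124). Over all 29, 18 had fold changes below 0, with a median of -0.02. The call of Ubb was lost on protein-coding genes alone, where 0 genes passed in either direction. In females 6 fell, against 5.64% of all genes, and 19 of 29 had fold changes below 0, with a median of -0.09 where that of all protein-coding genes was -0.08. Those that fell include Ubb (-0.42, edgeR adjusted p = 0.000717), Vcp, the ATPase that extracts substrates (-0.35, 0.00352), its cofactor Nploc4 (-0.32, 0.00672) and Uba1, the ubiquitin-activating enzyme (-0.32, 0.0069). Ubqln4, a substrate shuttle, fell as well, and 1 gene rose, the ubiquitin ligase Ube3a (0.46, edgeR adjusted p = 0.0333), for which female control replicate 2 was the lowest of all 16 libraries (153 CPM). On protein-coding genes alone 239 of all genes fell in females, against 1216 in the main fit. Values of the associated genes in that fit are not given here. The sex difference of the dual effect passed for 2 genes, against 0.733% of all genes: Vcp (0.40, edgeR adjusted p = 0.0353) and Ubb (0.38, 0.0403). By library totals both calls were lost, since 0 of all genes passed higher for this difference. On protein-coding genes alone 1 of all genes passed higher, and 0 did with the GC trend also taken out. With paternal or maternal exposure against control 0 of 29 passed edgeR's test. Nfe2l1, which encodes NRF1, was at 127 to 139 CPM in dual and 122 to 147 CPM in control libraries (log2 fold change -0.05 ± 0.05 SE, edgeR adjusted p = 0.639).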

How the data were processed

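Raw counts per gene, whole numbers, were deposited by the authors as 1 table per library of total RNA from fetal mouse cortex. Per the submitters' processing notes they come from Trimmomatic, STAR and featureCounts on GRCm39. No source used here states their versions, the annotation, the strand setting or what was done with multimapping reads, so members with near copies or overlapping neighbours are uncertain. All 55359 gene IDs were read and 52083 had a symbol in GENCODE M21, which also gave gene classes, exon lengths and GC content.

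In R 4.3.3, genes were kept by filterByExpr (minimum count 10, minimum total 15), normalised by TMM, and compared by two-sided quasi-likelihood tests of edgeR 4.0.16 (glmQLFit, then glmQLFTest), with 8 group means fitted once to 16 libraries. Comparisons of exposures weight the sexes equally. Non-additivity subtracts both single effects from the dual one. The test was checked on simulated data for dual exposure against control over 21543 genes. Planted rises of 1.5, 2 and 4 times were found in 82%, 98% and 100% of cases and falls to 0.5 times in 90%. Of the calls 3.14% were false. Recovery of smaller falls, such as those of Adrm1, Psmb5 and Psmb4 to 0.81, 0.79 and 0.85 times in this comparison, was not tested. Replicates differed beyond counting noise in all 8 groups (median squared difference 1.44 to 3.94, against 0.455 for noise alone). The value was highest in the female controls (3.94), followed by the female dual group (2.05), and was 1.44 to 1.63 in the remaining groups. Precision in the tests was taken from the differences between replicates, and no interval was computed for single libraries.

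Members and gene lists were chosen with earlier results of these data known. Named were, per exposure against control, members past the threshold (up to 12 of smallest p in each direction, or 6 of smallest p where fewer than 6 passed), up to 4 for other comparisons and for the list of associated genes, the 3 highest and 3 lowest levels, and the catalytic pairs. Other members named to fill a role, and the GC and beta over alpha values, were chosen after their values were seen. Alternatives were DESeq2 1.42.0, its size factors, all genes unfiltered, a replicate block, the compared groups alone and leaving out each library. Chosen after seeing the data were protein-coding genes only, a lowess trend with GC content taken out as an offset on those genes, scaling by library totals without TMM, the comparisons within a sex, and leaving out both female dual libraries.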

Additional observations from a re-analysis of the deposited data

Results flagged for a closer look

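For 3 of 76 values tested over the 4 libraries of an exposure, 1 library lay far from the other 3, where chance gives about 1 in 20 and the 4 libraries mix the sexes. Psmb3 was at 45.9 CPM in female dual replicate 2, against 49.1 to 49.6 CPM in the other dual libraries. Psmb3 was at 63.2 CPM in male maternal replicate 1, against 53.7 to 55.2 CPM in the other maternal libraries. Psmd3 was at 78.2 CPM in male maternal replicate 2, against 86.5 to 88.0 CPM in the other maternal libraries.

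The effect of dual exposure differed between the sexes for 6 members by a test of the difference itself, the male minus the female log2 fold change. It was 0.45 for Psmc1 (edgeR adjusted p = 0.0221), 0.52 for Psmb6 (0.0230), 0.41 for Psmd2 (0.0336), 0.46 for Psmb4 (0.0375), 0.38 for Psmd7 (0.0457) and 0.43 for Adrm1 (0.0470). Female dual libraries held 0.872% and 0.86% of counts on TEC and sense-intronic genes, above the other 14 libraries. By library totals without TMM 0 members passed edgeR's test of this difference, as in the fit on protein-coding genes. The part of composition in the differences was not tested.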

How the results depend on the processing

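On protein-coding genes only, members past the threshold numbered 0 lower for dual against control, 2 against paternal, 0 against maternal, 6 in females (median -0.15), 0 for the sex difference of the dual effect (median 0.23) and 0 for non-additivity. All genes past it then numbered 0 higher and 0 lower for dual against control, 157 and 51 against paternal, 34 and 8 against maternal, 473 and 239 in females, and 1 and 41 for the sex difference. With the GC trend also taken out, members numbered 0, 1, 0, 2, 0 and 0 in that order of comparisons, and all genes 0 and 0, 134 and 38, 2 and 0, 189 and 68, and 0 and 15. Medians of the members were then -0.16 for dual in females, 0.24 and 0.20 for the sex differences of the dual and maternal effects, and -0.075 for non-additivity, and core minus cap for dual against paternal was -0.0089, against 0.017 with TMM and all genes. Psmc6 changed sign in that fit with paternal (-0.017) and maternal exposure (-0.00109), and with maternal exposure without female control replicate 2 (-0.00307, range up to 0.17). The cause of these shifts was not tested.

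Scaled by library totals without TMM, members lower numbered 2 for dual against paternal, 3 for dual in females and 0 for non-additivity, and 0 were higher for the sex difference of the dual effect. Medians were -0.018 for paternal exposure, -0.11 and -0.16 for dual in males and females, 0.029 for paternal in males, and 0.055 and 0.081 for the sex differences of the dual and paternal effects. Psmc1 (-0.045) and Psmc5 (-0.025) changed sign for dual in males. All genes lower numbered 77 for dual against control, 187 against paternal and 138 in females, and for the sex difference of the dual effect 0 were higher and 1104 lower.

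With the compared groups alone, members lower numbered 0 for dual against control and 10 against maternal, and all genes 323 higher and 12 lower, 894 lower against paternal and 638 lower against maternal. Without the filter, 1 member passed higher for maternal exposure in males and for the sex differences of the paternal and maternal effects. All genes then numbered 941 higher and 404 lower for dual against control, 168 and 153 for paternal, 49 and 30 for maternal, 753 lower for dual against paternal, 590 lower against maternal, and 438 higher and 1104 lower for the sex difference of the dual effect. DESeq2 called 264 genes lower for dual against control, 5 higher and 15 lower for paternal, 2 higher for maternal and 340 higher for that sex difference. Core over cap as a mean of log2 levels was -0.47, -0.46, -0.43 and -0.45 in dual, paternal, maternal and control libraries. As log2 of the ratio of summed levels, the measure used in the main text, it was -0.19 in dual libraries without immune and tissue-restricted members.

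Leaving out single libraries gave, for members lower, 0 to 5 for dual against control, 2 to 7 against paternal, 1 to 4 against maternal, 5 to 28 in females and 0 to 7 for non-additivity. Members higher ran 0 to 1 for dual (both sexes, and females) and paternal against control, and 0 to 23, 0 to 10 and 0 to 6 for the sex differences of the dual, paternal and maternal effects. Medians ran -0.12 to -0.05 for dual against control, 0.0026 to 0.086 for paternal, -0.031 to 0.06 for maternal, -0.18 to -0.11 for dual against paternal, -0.15 to -0.09 against maternal, -0.017 to 0.15 for dual in males, -0.32 to -0.18 in females, 0.094 to 0.24 and 0.072 to 0.2 for paternal and maternal exposure in males, -0.14 to -0.027 and -0.18 to -0.054 for them in females, 0.21 to 0.40, 0.15 to 0.34 and 0.20 to 0.33 for the 3 sex differences, and -0.20 to -0.10 for non-additivity. Core minus cap ran -0.024 to 0.033 for dual against control, -0.014 to 0.026 for paternal, -0.0017 to 0.035 for maternal, -0.0023 to 0.029 for dual against paternal and -0.054 to -0.0097 against maternal. All genes higher and lower ran 137 to 1225 and 5 to 831 for dual against control, 0 to 439 and 0 to 233 for paternal, 0 to 114 and 0 to 15 for maternal, 656 to 1339 and 85 to 499 for dual against paternal, 354 to 775 and 35 to 289 against maternal, 938 to 2051 and 249 to 1981 for dual in females, and 0 to 1431 and 18 to 1423 for the sex difference. A lone library left in a group was assumed to vary like the other groups. Counts of all genes in these fits are not given for the sex differences of the paternal and maternal effects. The members' counts there are therefore not read as a result about the members.

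Replicate numbers did not pair the libraries in general: of 28 pairs of groups 1 had a correlation of deviations over 0.1 (range -0.14 to 0.18). That pair was female control with female dual (0.18). With the replicate number as a block, members lower numbered 3 for dual against control, 8 against paternal, 4 against maternal and 16 in females, and 5 were higher for the sex difference of the dual effect. Psmb9, Psmb11 and Psma8 had too few counts to be tested, and Psmb8 was tested with a wide error (-0.70 ± 0.90 SE for dual against control).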
